A study of Bombus terrestris with 16 samples.

Results

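The genes described here build the route by which newly made proteins enter the endoplasmic reticulum (ER), are folded and sugar-coated there, and leave for the Golgi. They were chosen by the KEGG description deposited with each RefSeq transcript record, which had to name a SEC protein transport protein, the translocon, signal peptidase, the signal recognition particle, calreticulin, calnexin, a protein disulfide isomerase, oligosaccharyltransferase, coatomer or the endoplasmic reticulum, with a hit score of at least 100. This gave 53 of 10635 records, called members here. A further 7 records matched in words but scored below 100. The nearest inside scored 114 and 123 (the PDIA3 records XM_003400162.1 and XM_003400161.1, 0.263 and 0.917 RPKM), and the nearest outside scored 95.9 (signal recognition particle receptor beta, XR_132427.1, 4.82 RPKM). RPKM is a read count scaled by transcript length and library total, and levels of different genes are compared only on that scale. By description the 53 records fall into 9 for targeting, 8 for translocation, 7 for signal peptide removal, 6 for N-glycosylation, 7 for folding, 6 for the COPII coat, 3 for the COPI coat and 7 other ER genes.

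Poly(A) RNA was sequenced from guts of workers of the bumblebee Bombus terrestris, in 16 libraries. Workers of 4 colonies (K, L, S and T) had been exposed to genotype 068, 075 or 161 of Crithidia bombi, a trypanosomatid parasite of the bumblebee gut, or were controls, and each colony gave 1 library per exposure. That makes 12 exposed libraries, 4 per genotype, and 4 control libraries. RNA of 3 workers, each 7 d of age and taken 18 h after the exposure, was pooled for each library, and single workers cannot be told apart within a pool. The study's title names gene expression behind genotype-by-genotype specificity, and the comparisons below are of exposed with control guts, of each genotype with control, of the genotypes with each other, of the colonies, and of the response between colonies.

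A protein bound for secretion or for a membrane carries a signal peptide that the signal recognition particle (SRP) binds on the ribosome. The SRP receptor hands the ribosome to the SEC61 channel, signal peptidase clips the signal, oligosaccharyltransferase (OST) attaches a glycan, and calnexin, calreticulin and the protein disulfide isomerases fold the chain. COPII coats form vesicles that leave the ER, and COPI coats return escaped proteins. Gut cells of insects depend on this route for digestive enzymes and for the proteins of the gut lining.

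Libraries held 8.47 to 9.29 M counted reads. Counts were scaled by TMM and are given per 1000000 reads (CPM). A record without a read could hold up to 3 counts, or 0.297 to 0.415 CPM depending on the library, a limit for counting error only. The libraries K control, S 075 and L 161 lay farthest out on the first principal component, which held 34.1% of the variance (scores 54.3, 41.7 and -51.9), and L 161 also lay apart on the second (16% of the variance, score -58.5). L 161 had the lowest TMM factor, 0.811. The tissue label was checked with 67 records of digestive enzymes, which summed to 129900 to 189300 CPM in exposed guts and 98410 to 168700 CPM in control guts. Summed muscle markers (29 records) ran from 2812 to 4388 CPM in exposed and 2582 to 4671 CPM in control guts. Nervous system markers (15 records) ran from 364 to 551 CPM and 437 to 530 CPM in exposed and control guts. Markers of dividing cells (14 records) ran from 145 to 234 CPM and 164 to 289 CPM, with the highest sum in K control. The Malpighian tubule list (26 records) ran from 8939 to 11650 CPM and 9146 to 10760 CPM. It was chosen by the descriptions V-type H+-transporting ATPase, urate oxidase and aquaporin, and whether its reads come from tubules was not tested. No description matched the hemocyte or fat body markers. In pooled guts, fewer cells of a type and less RNA per cell cannot be told apart.

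Reads were found in all 16 libraries for 49 of the 53 records. The median level of the 53 records was 23.2 RPKM, against 4.78 RPKM for all records, and together they took 0.478 ± 0.0568% of reads (SD, n = 16), highest in K 075 at 0.574% and lowest in T control at 0.368%. Calreticulin (XM_003403152.1, LOC100643307), a calcium-binding chaperone that holds glycoproteins while they fold, was the most abundant at 358 ± 87.4 RPKM (SD, n = 16), highest in K 075 at 530 and lowest in T control at 178. OST gamma (XM_003394836.1), a subunit of the glycan-transferring enzyme, followed at 104 ± 12.3 RPKM. The transitional ER ATPase (XM_003399402.1), known as VCP or p97, which pulls proteins out of the ER membrane, stood at 101 ± 10.6 RPKM. Calreticulin lay above both by more than the spread between libraries, while OST gamma and the ATPase lay within 1 SD of each other.

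The median of the 7 signal peptide removal records was 14.15 RPKM. Targeting genes stood close below it, lowest among the larger roles, with a median over their 9 records of 13.6 RPKM. SRP54 (XM_003399393.1), the subunit that reads the signal peptide, led them at 34.3 ± 3.71 RPKM. A record described as SRP19 (XM_003396202.1), a subunit that helps assemble the particle, was last at 3.71 ± 0.659 RPKM. Its KEGG hit is from a species other than the honeybee, while the other SRP19 record has a honeybee hit and averaged 9.51 RPKM. Of the translocation genes, SEC61 gamma (XM_003397890.1) and beta (XM_003394576.1), small subunits of the channel, reached 93.6 ± 19.2 and 55.8 ± 14.1 RPKM, and the pore-forming SEC61 alpha (XM_003401685.1) 23.2 ± 3.47 RPKM. The 4 translocon-associated (TRAP) subunits, which sit beside the channel, spanned 8.53 (delta, XM_003395238.1) to 39.2 RPKM (beta, XM_003392961.1).

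Signal peptidase subunit 2 (XM_003398246.1) averaged 67.9 ± 26.0 RPKM and led its role, while the record XM_003396973.1, described as an ER-type signal peptidase, averaged 0.0308 ± 0.0344 RPKM with reads in 8 of 16 libraries. Among folding genes after calreticulin, PDIA3 (XM_003393020.1), the disulfide isomerase that works with calreticulin and calnexin, stood at 73.3 ± 15.1 RPKM. Calnexin (XM_003402993.1), the membrane-bound counterpart of calreticulin, stood at 54.7 ± 6.81 RPKM, PDI A1 (XM_003403278.1) at 37.7 ± 10.5 RPKM and PDI A6 (XM_003398355.1) at 16.8 ± 5.52 RPKM, the last 2 being further disulfide isomerases. Of the COPII genes, one SEC24 record (XM_003399484.1), which picks cargo, was highest at 91.7 ± 11.6 RPKM and SEC13 (XM_003395405.1), part of the outer cage, lowest at 7.09 ± 1.26 RPKM. SEC20 (XM_003392847.1) falls under COPII by its description, although it is known as a SNARE of the return route. The 3 COPI records all carry the description of coatomer alpha and averaged 42.5 to 78.2 RPKM.

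**Figure D1:**
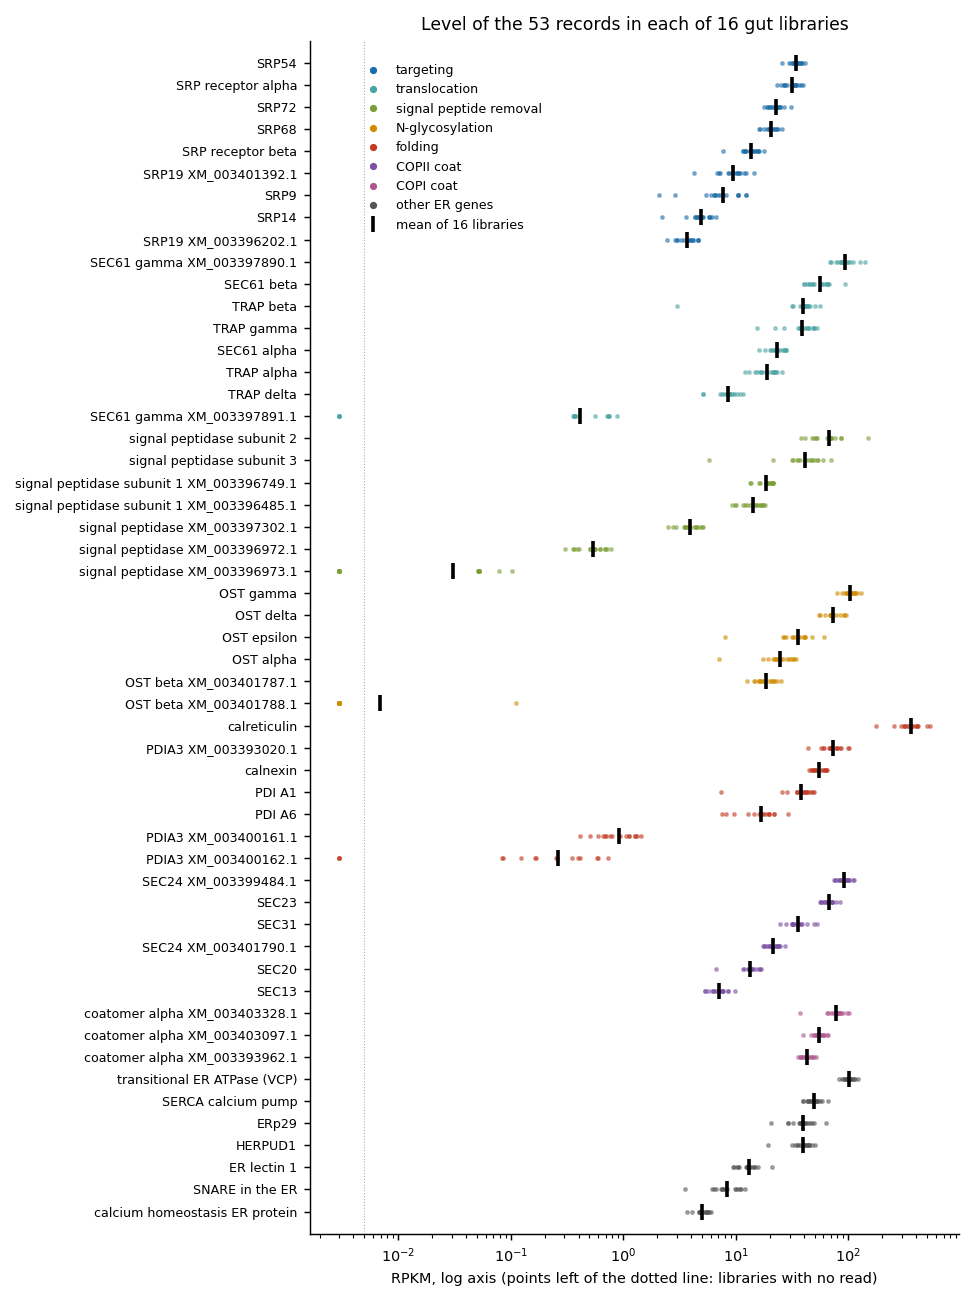
Level of each of the 53 records in RPKM (log axis), with 1 point per library (16 libraries), coloured by role, and a black bar at the mean; points left of the dotted line are libraries without a read. Calreticulin lies at the top with a mean of 358 RPKM, and the 4 records that did not pass the count filter have means of 0.412 RPKM or less.

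In 4 pairs, both records share 1 honeybee KEGG hit, so reads of one gene may be split between them: OST beta (XM_003401787.1 and XM_003401788.1), SEC61 gamma (XM_003397890.1 and XM_003397891.1), coatomer alpha (XM_003393962.1 and XM_003403328.1) and signal peptidase subunit 1 (XM_003396485.1 and XM_003396749.1). The 2 low PDIA3 records share 1 locus, LOC100646961. The ER-type signal peptidase records XM_003396972.1 and XM_003396973.1 share 1 KEGG hit from a species other than the honeybee. These records are counted as deposited. In all, 49 of the 53 passed the count filter, and the others were XM_003401788.1, XM_003397891.1, XM_003400162.1 and XM_003396973.1. They had 0 to 18 reads in a library, and a count of 0 in 15, 4, 3 and 8 of 16 libraries.

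The median coefficient of variation of CPM over 16 libraries was 17.6% for the 49 tested records and 22.7% for all 8406 tested genes, and the median level was 31.5 RPKM for the tested members and 7.91 RPKM for all tested genes. The transitional ER ATPase varied least, at 4.82%, its highest library (L 068, 287 CPM) reaching 1.20 times its lowest (S 161, 239 CPM). Signal peptidase subunit 2 varied most, at 49%. Across the 16 libraries the median Pearson correlation of log2 CPM over the 136 pairs within a role was 0.15, over the 1176 pairs of all tested members 0.16, and over all gene pairs 0.00, a description of libraries that share colony and depth. Calreticulin followed the ER protein 29 record (ERp29, XM_003402636.1) at r = 0.95 and PDIA3 at r = 0.95, and the 2 SEC24 records followed each other at r = 0.95. PDI A1 and OST alpha (XM_003397507.1) correlated at 0.96, and at 0.84 over the 13 libraries other than K control, S 075 and L 161.

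No gene of the pathway passed the test between exposed and control guts. With edgeR's quasi-likelihood test and Benjamini-Hochberg adjustment over 8406 genes, 0 of 49 members differed between exposed and control guts, beside 0% of all genes. An unadjusted p under 0.05 was found for 1 member (2.04%) and 263 genes (3.13%), and DESeq2 and limma-trend on log2(RPKM + 1) also called 0 members. The fitted log2 difference was above 0 for 36 of 49 members with a median of 0.03, and for 3708 of 8406 genes with a median of -0.02. It was above 0 for 6 of 6 folding, 5 of 5 N-glycosylation and 6 of 7 translocation genes, and for 4 of 9 targeting and 1 of 3 COPI genes.

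PDIA3 had the smallest p. It lay between 254 and 461 CPM in the 12 exposed libraries (median 337), against 324, 274, 309 and 212 CPM in the K, L, S and T controls. The groups overlap, with the T control below every exposed library. The log2 difference was 0.29 ± 0.12 (SE; adjusted p = 1.0 in edgeR, unadjusted p = 0.0352).

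Calreticulin lay between 505 and 946 CPM in exposed libraries (median 678), against 553, 487, 732 and 349 CPM in the K, L, S and T controls. The S control lay above all but K 068 and K 075, and the L and T controls lay below every exposed library, so the groups overlap. Its log2 difference was 0.36 ± 0.18 (SE). Next came SEC61 beta at 0.32 ± 0.18, PDI A6 at 0.37 ± 0.22, OST beta (XM_003401787.1) at 0.18 ± 0.11 and ERp29 at 0.30 ± 0.21, none of which passed the test. Leaving out T control lowered calreticulin to 0.17, PDIA3 to 0.17, PDI A6 to 0.17 and ERp29 to 0.11, and leaving out S control raised them to 0.69, 0.46, 0.63 and 0.71. At the other end the ER-type signal peptidase XM_003396972.1 had a log2 difference of -0.20 ± 0.22.

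The size of this tilt depended on single libraries. The median log2 difference of the members was 0.01 without L control, 0.02 without L 068, 0.07 without L 161 and 0.13 without S control. Without S control, 9 of the 49 members (18.4%) had an unadjusted p under 0.05, beside 8.58% of the same 8406 genes, with the smallest p for ERp29 (0.71 ± 0.14) and calreticulin (0.69 ± 0.14). None of the 9 passed the adjusted threshold, the smallest adjusted p in edgeR being 0.252. PDIA3 XM_003400162.1, which has no read in the K, L and T controls, passed the count filter in that fit only through exposed libraries and is left out of these counts. Without any other single library, 0 to 2 members had an unadjusted p under 0.05, a count given without the share of all genes.

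Each genotype was also compared with the same 4 control libraries. For genotype 068, 0 of 49 members passed the test, beside 0% of all genes, and 41 of 49 had a difference above 0 with a median of 0.11 on the log2 scale, while 3915 of 8406 genes did, with a median of -0.02. For genotype 075, 0 of 49 passed, beside 0%, with 34 above 0 and a median of 0.07, while 4001 of all genes were above 0 with a median of -0.01. For genotype 161, 0 of 49 passed, beside 0%, with 21 above 0 and a median of -0.06, while 3616 of all genes were above 0 with a median of -0.04. With 1 library left out the medians ran as low as 0.04 for 068 (without L 068) and 0.01 for 075 (without L control), and that of 161 lay above 0 without S control (0.08) or L 161 (0.02). In edgeR, 3, 1 and 0 members had an unadjusted p under 0.05 for 068, 075 and 161, against 250, 266 and 166 of all genes, and DESeq2 and limma-trend called 0 members in each. Because these comparisons share their controls, their values are side by side here and no overlap between them is counted.

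Translocation and folding genes led with genotype 068. SEC61 beta measured 101 and 66.6 CPM in K 068 and L 068 and 48.0 and 63.9 CPM in S 068 and T 068, against 43.1, 44.2, 60.2 and 45.5 CPM in the K, L, S and T controls. The groups overlap through colony S, where genotype 068 lay below its control. The log2 difference was 0.49 ± 0.22 (SE) for 068, 0.41 ± 0.22 for 161 and 0.04 ± 0.22 for 075. Without colony K that of 068 was 0.23, and without K control, S 075 and L 161 that of 161 was 0.08. TRAP gamma (XM_003399387.1) differed by 0.45 ± 0.20 and PDIA3 by 0.34 ± 0.15 for 068. For genotype 075, PDI A6 led with 0.59 ± 0.26. For genotype 161, signal peptidase subunit 2 differed by 0.53 ± 0.31 and SEC31 (XM_003394221.1), an outer COPII subunit, by 0.33 ± 0.20, and without K control, S 075 and L 161 these were -0.10 and -0.03.

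The 3 genotypes were then tested against each other in 1 test. For members, 0 of 49 passed, beside 0% of all genes, and 0 members and 134 genes had an unadjusted p under 0.05 in edgeR; DESeq2 and limma-trend called 0 members. TRAP gamma had the smallest p of the members, 0.111 unadjusted in edgeR. The summed level of the pathway shows no order of genotypes that holds in all colonies. All 53 records summed to 5704, 5666 and 4757 CPM in K 068, K 075 and K 161 and to 4750, 4542 and 4880 CPM in T 068, T 075 and T 161.

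**Figure D2:**
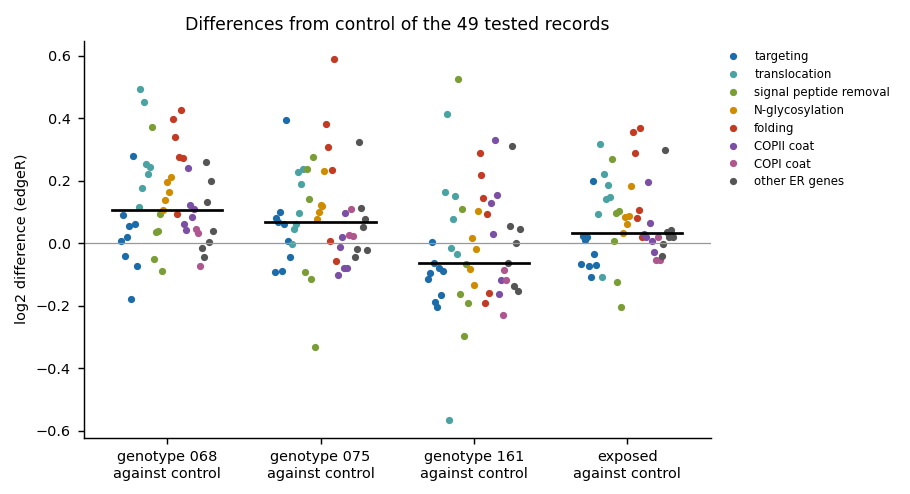
Fitted log2 differences from control (edgeR, vertical axis) of the 49 tested records for genotypes 068, 075 and 161 and for all exposed libraries, 1 point per record coloured by role, with a black line at the median. The medians are 0.11, 0.07, -0.06 and 0.03, and no record passed the adjusted threshold in any of the 4 comparisons.

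For the response by colony, the count of members called was near the background. In the test of the interaction of colony with exposed state, which takes the 3 exposed libraries of a colony as replicates and has 1 control library per colony, ERp29 passed with an adjusted p of 0.0297 in edgeR. That is 1 of 49 members, beside 1.69% of all genes (142 of 8406). ERp29 is an ER-resident relative of the disulfide isomerases, known from mammals as a helper in folding secreted proteins and from Drosophila as Windbeutel. Calreticulin came next with an adjusted p of 0.0697 and SRP19 (XM_003396202.1) with 0.196, neither past the threshold.

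ERp29 measured 71.4, 90.8 and 65.3 CPM in K 068, K 075 and K 161, against 44.4 CPM in K control. In colony L it measured 59.9, 56.8 and 65.6 CPM in the same order of genotypes, against 44.9 CPM in L control, and in colony T 63.4, 56.4 and 63.9 CPM, against 32.2 CPM in T control. In colony S it measured 40.4, 45 and 47.5 CPM in the exposed libraries, against 70.9 CPM in S control. All 3 exposed libraries thus lay above the colony's own control in K, L and T, and all 3 lay below it in S. The mean log2 differences, exposed minus control, were 0.75, 0.43 and 0.92 in K, L and T and -0.68 in S.

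Calreticulin lay on the same side of the control as ERp29 in each colony. It measured 937, 946 and 641 CPM in K 068, K 075 and K 161, against 553 CPM in K control, and 727, 635 and 692 CPM in exposed L, against 487 CPM in L control. In colony T it measured 671, 684 and 716 CPM, against 349 CPM in T control, and in colony S 505, 548 and 538 CPM, against 732 CPM in S control. The exposed libraries lay above their control without overlap in K, L and T and below it in S, with mean log2 differences of 0.58, 0.49, 0.98 and -0.47 in K, L, T and S.

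PDIA3, SEC61 alpha and TRAP delta shared this order of exposed libraries and control. PDIA3 had mean log2 differences of 0.36, 0.31, 0.68 and -0.15 in K, L, T and S, SEC61 alpha of 0.20, 0.44, 0.33 and -0.35, and TRAP delta of 0.36, 0.63, 0.12 and -0.44. This order, singled out after its values were seen, held for 5 of 49 members (10.2%) and 103 of 8406 tested genes (1.23%). The SRP19 record XM_003396202.1 had another order. It had 12, 12.6 and 12.9 CPM in exposed K, against 8.81 CPM in K control, and 10.5, 10.7 and 11.8 CPM in exposed L, against 7.19 CPM in L control. In exposed S it had 7.66, 8.17 and 7.98 CPM, against 12.6 CPM in S control, and in exposed T 10.9, 10.4 and 7.94 CPM, against 13.9 CPM in T control. This record thus lay above the control in K and L and below it in S and T. The other record described as SRP19, at 9.51 RPKM, did not share this order. Its mean log2 differences were -0.50, 0.15, -0.05 and -0.05 in K, L, S and T.

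**Figure D3:**
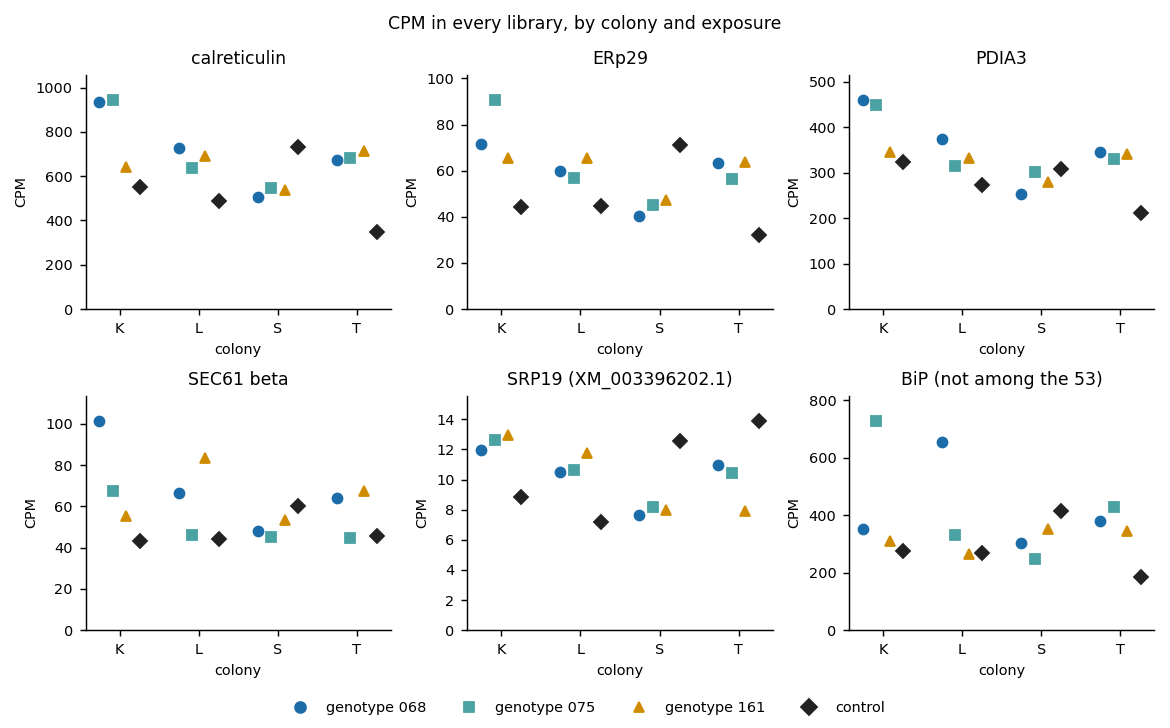
CPM (vertical axis, from 0) of calreticulin, ERp29, PDIA3, SEC61 beta, SRP19 (XM_003396202.1) and the ER chaperone BiP in all 16 libraries, grouped by colony, with genotypes 068, 075 and 161 left of the control. The S control lies above all 3 exposed libraries of its colony for each of the 6 genes, and the T control lies at 349 CPM for calreticulin, below every other library.

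The call for ERp29 turned on single libraries. DESeq2 called ERp29 and calreticulin (adjusted p = 8.98e-05 and 0.00103), and limma-trend on log2(RPKM + 1) called neither (0.0621 for ERp29). Leaving out 1 exposed library at a time, the adjusted p of ERp29 in edgeR ran from 0.0126 to 0.0764, and it missed the threshold without K 068, K 161, L 075, S 068, S 075, S 161 or T 068, while calreticulin reached 0.0423 without L 161 and 0.0329 without colony L. With a whole colony left out, the adjusted p of ERp29 was 0.534 without K, 0.0124 without L, 0.954 without S and 0.0868 without T. Unadjusted, these were 0.000317, 0.000123, 0.326 and 0.00189, and without K no gene of 8409 passed. The difference in colony S rests on 1 control pool.

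Fewer members lay above the control in colony S than in the other colonies. In colonies K, L, S and T, 34, 33, 11 and 34 of 49 members had a mean log2 difference, exposed minus control, above 0, beside 46.4%, 45.3%, 49.4% and 49.9% of all genes. The medians of the members were 0.18, 0.09, -0.15 and 0.12, and those of all genes -0.04, -0.03, -0.01 and 0.00. In colony S all 3 exposed libraries lay below the control for 27 of 49 members, beside 27.0% of all genes. All 3 lay above it for 4 of 49 members, beside 28.7%. In colony K all 3 lay above the control for 24 of 49 members, beside 28.5% of all genes, and below it for 8 of 49, beside 33.9%. In colony L the counts were 14 of 49 above, beside 16.7%, and 1 of 49 below, beside 17%. In colony T they were 20 of 49 above, beside 30.6%, and 10 of 49 below, beside 30.5%. No test of the members as a group was run. Each of these differences shares 1 control library per colony.

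The roles differed in this. The folding genes had median log2 differences of 0.24, 0.40, -0.17 and 0.57 in K, L, S and T, with 6, 5, 0 and 5 of 6 above 0. Those of the COPII genes were 0.28, 0.07, -0.27 and 0.06 (5, 5, 0 and 5 of 6 above 0), and those of the translocation genes 0.27, 0.44, -0.24 and 0.19 (6, 6, 2 and 6 of 7). For these 3 roles the median in S lay below 0 and those in K, L and T above it. N-glycosylation genes had medians of 0.22, -0.01, -0.11 and 0.23, with 4, 2, 0 and 5 of 5 above 0. Targeting genes had medians of -0.05, 0.15, -0.14 and -0.05 (4, 5, 3 and 4 of 9), signal peptide removal genes 0.12, 0.10, -0.16 and -0.02 (4, 4, 3 and 2 of 6) and COPI genes 0.04, 0.06, -0.07 and -0.18 (2, 2, 1 and 1 of 3), so that in these 3 roles colony T also lay below 0. The other ER genes had medians of -0.02, 0.03, -0.13 and 0.24. For 32 of 49 members (65.3%), all 3 exposed libraries lay above the control in one colony and all 3 below it in another, beside 54.2% of all genes.

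**Figure D4:**
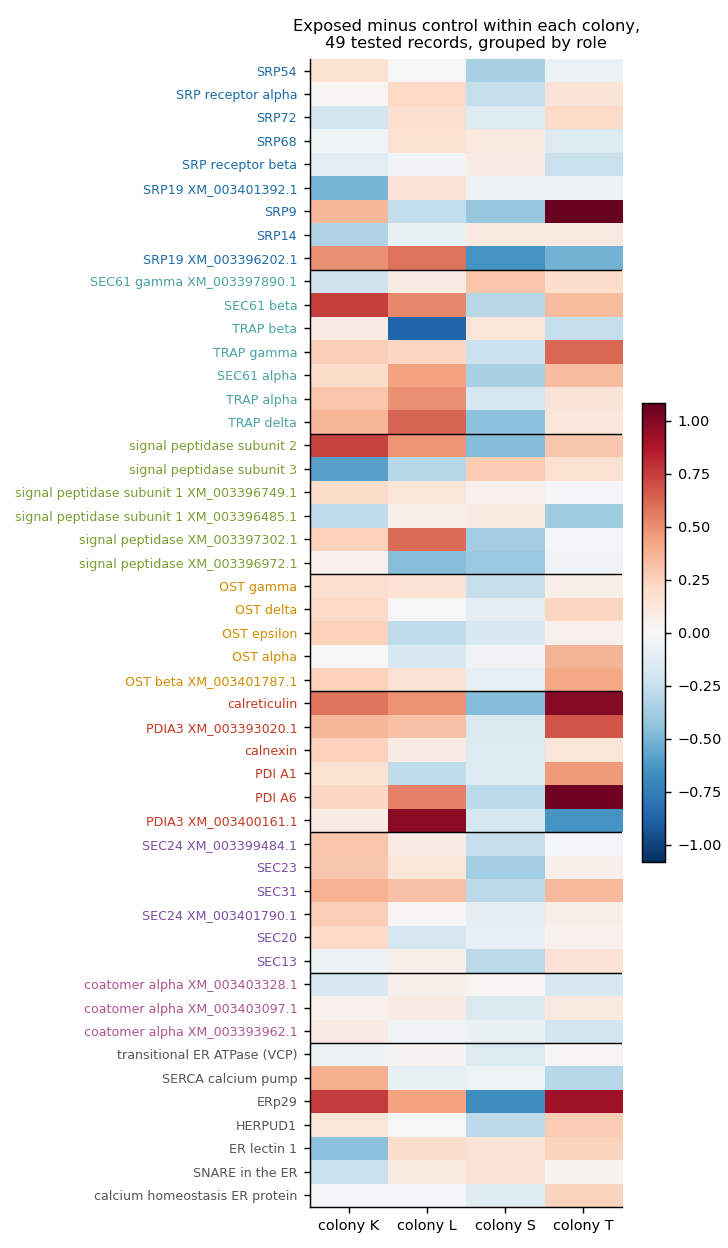
Mean log2 CPM of the 3 exposed libraries minus that of the control, by colony (columns), for the 49 tested records (rows, grouped from top to bottom into targeting, translocation, signal peptide removal, N-glycosylation, folding, COPII coat, COPI coat and other ER genes). Red marks higher and blue lower in exposed libraries; colony S is mostly blue (11 of 49 above 0), and K, L and T have 34, 33 and 34 above 0.

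The digestive enzymes that this route exports were summed over their 67 records. In colony K, but not in L, S or T, their exposed libraries all lay on the same side of the control as for calreticulin. Their summed level was 129900, 139900 and 176000 CPM in K 068, K 075 and K 161, against 98410 CPM in K control, and 144100, 159000 and 189300 CPM in L 068, L 075 and L 161, against 152200 CPM in L control. It was 164900, 158700 and 130400 CPM in S 068, S 075 and S 161, against 153200 CPM in S control, and 167600, 140300 and 156800 CPM in T 068, T 075 and T 161, against 168700 CPM in T control. The enzyme sum of the K control lies below its exposed libraries, those of the L and S controls lie among theirs, and that of the T control is the highest of its colony. Between exposed and control guts, 21 of 57 tested enzyme records had a log2 difference above 0 and 36 below it. Their median was -0.07, beside -0.02 for all genes. In the interaction test, 3 of 57 tested enzyme records and 1 of 14 records of dividing cells passed, beside 1.69% of all genes. Of the other lists, 0 of 20 muscle, 0 of 10 nervous system and 0 of 25 Malpighian tubule records passed. The part of these lists in the ERp29 result was not tested.

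Other genes of ER quality control, which are not among the 53, were described beside them. Of 34 such records, all tested, 0 passed for exposed against control (0 with an unadjusted p under 0.05 in edgeR), 21 had a difference above 0, and the median was 0.04 on the log2 scale. BiP (XM_003394262.1), the main ER Hsp70 chaperone, averaged 392 ± 149 CPM in exposed guts (SD, n = 12) and 286 ± 95.0 CPM in control guts (SD, n = 4), a log2 difference of 0.44 ± 0.28 (SE). It measured 352, 729 and 312 CPM in exposed K, against 277 CPM in K control, and 303, 246 and 354 CPM in exposed S, against 413 CPM in S control. In exposed L it had 654, 331 and 266 CPM, against 268 CPM in L control, so L 161 lay below its control. In exposed T it had 381, 430 and 346 CPM, against 184 CPM in T control. BiP in K 075 and L 068 (654 CPM) stood above all other libraries, and the same 2 libraries held the most of the ER Hsp90 (GRP94, XM_003401877.1), at 520 and 424 CPM.

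GRP94 averaged 262 ± 108 CPM in exposed and 186 ± 69.3 CPM in control guts, a log2 difference of 0.47 ± 0.30. The oxidase ERO1 (XM_003393667.1), which recharges disulfide isomerases, had a difference of 0.43 ± 0.23, and XBP1 (XR_131953.1), a transcription factor of the unfolded protein response, averaged 268 ± 38.0 CPM in exposed and 237 ± 29.1 CPM in control guts. Of the 34, 13 records had a difference below 0, and the sensors of the unfolded protein response IRE1 (XM_003400900.1) and ATF6 (XM_003394062.1) had -0.01 ± 0.15 and -0.05 ± 0.11. The EDEM records (XR_132043.1 and XM_003393179.1), which mark misfolded glycoproteins for disposal, had -0.05 ± 0.10 and -0.10 ± 0.11, and the lowest was a mannosidase (XM_003395150.1) at -0.51 ± 0.30. In the interaction test 0 of the 34 passed, beside 1.69% of all genes. An unadjusted p under 0.05 was found for 1 of them, the BiP partner DnaJ B11 (XM_003397949.1, adjusted p = 0.315 in edgeR). DnaJ B11 lay above the control in all exposed libraries of K, L and T and below it in S, as calreticulin did. It had 51.7, 55.3 and 63.5 CPM in exposed S, against 75.2 CPM in S control. The record described as hypoxia upregulated 1 shared this order, with 127, 117 and 141 CPM in exposed S, against 165 CPM in S control. BiP, GRP94 and XBP1 did not, each with L 161 below L control. Of 16 records for traffic between ER and Golgi, 13 were tested, 8 had a difference above 0 between exposed and control guts and 0 passed (0 with an unadjusted p under 0.05).

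No member passed the test between colonies either. In colony K against the others, 0 of 49 members passed, beside 0.357% of all genes, and in colony L 0, beside 0.107%. In colony S 0 passed, beside 0.25%, in colony T 0, beside 0.143%, and in the test of any difference among colonies 0, beside 0.464%. In edgeR 6, 5, 4 and 0 members had an unadjusted p under 0.05 for K, L, S and T and 4 for any difference. The share of all genes is not set beside these unadjusted counts, so they do not compare the members with other genes. DESeq2 and limma-trend called 0 members in each of these colony comparisons.

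In colony K, 38 of 49 members had a difference above 0, with a median of 0.09 on the log2 scale, beside 4507 of 8406 genes and a median of 0.02. In colony T it was 14 of 49, with a median of -0.05, beside 4211 genes and a median of 0.00. OST delta (XM_003398528.1, ribophorin II) led colony K. It had 281, 256, 224 and 217 CPM in K 068, K 075, K 161 and K control, against 166 to 238 CPM (median 196) in the 12 other libraries. The groups overlap only between 217 and 238 CPM. The log2 difference was 0.32 ± 0.09 (SE; adjusted p = 0.333 in edgeR), followed by PDIA3 at 0.36 ± 0.12, TRAP alpha (XM_003398066.1) at 0.40 ± 0.14 and TRAP gamma at 0.44 ± 0.16. In colony S one coatomer alpha record (XM_003393962.1) differed by -0.31 ± 0.09 (adjusted p = 0.361), and OST delta and OST beta by -0.24 ± 0.10 and -0.28 ± 0.11. In colony L, signal peptidase subunit 2 differed by 0.65 ± 0.24 and the ER calcium pump SERCA (XM_003399810.1) by 0.38 ± 0.16; for both, L 161 was the highest of the 16 libraries, and without it the differences were 0.257 and 0.175.

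The library L 161 had the lowest value of 15 and the highest of 8 of the 49 members, beside 24.1% and 18.1% of all genes. In it, 5 members (10.2%) lay below 50% of the next-lowest library, beside 493 of 8406 genes (5.87%); no other library held such a member. TRAP beta measured 3.04 CPM in L 161, against 25.5 to 44.0 CPM elsewhere. Signal peptidase subunit 3 (XM_003396176.1) measured 7.60 CPM, against 23.5 to 62.7 CPM, and PDI A1 31.6 CPM, against 96.7 to 170 CPM. For all 3 the library L 161 lay below the other 15 without overlap.

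OST alpha measured 49.7 CPM in L 161, against 109 to 176 CPM, and OST epsilon (XM_003401713.1) 7.32 CPM, against 18.8 to 45.1 CPM. Signal peptidase subunit 2 went the other way, with 169 CPM in L 161, against 36.5 to 82.3 CPM elsewhere. Signal peptidase subunits 2 and 3, parts of 1 complex, thus lay at opposite ends in this library. Of the OST subunits, alpha and epsilon lay below all other libraries. OST gamma, at 111 CPM, lay inside its own range elsewhere (103 to 144 CPM). Genotype 161 in colony L is 1 pool, so the library cannot be told apart from that combination.

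**Figure D5:**
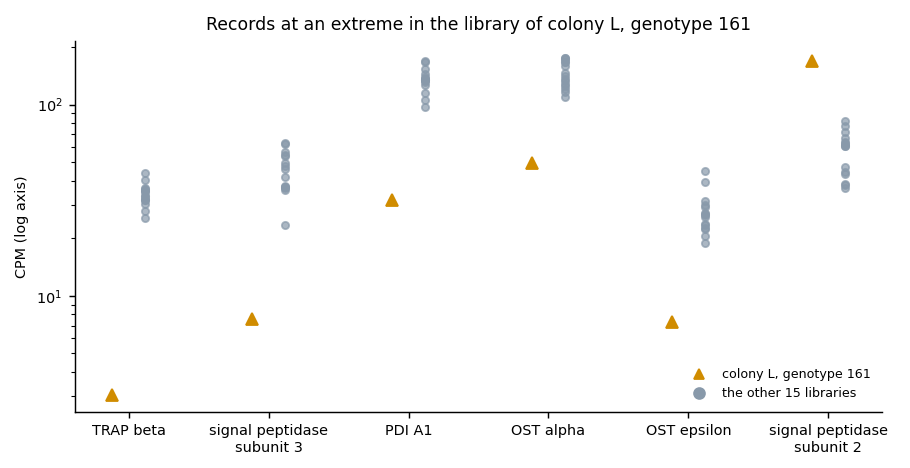
CPM (log axis) of 6 records in the library of colony L with genotype 161 (triangles) and in the other 15 libraries (circles). TRAP beta, signal peptidase subunit 3, PDI A1, OST alpha and OST epsilon lie below all others in L 161, and signal peptidase subunit 2 lies above them at 169 CPM.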

How the data were processed

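Poly(A) RNA from pooled guts was sequenced on an Illumina platform after random-hexamer priming, per the labels' protocols; a strand-marking step is not named there. TopHat 1.9 stands in the submitters' processing notes. Build, annotation release, counter and filters are not given in the sources used here, so no positions are printed. Per the file headers, the deposited table holds for each of 10635 RefSeq transcript records a read count and an RPKM in each of 16 libraries, a length, and a KEGG description with a hit score. The deposited counts are whole numbers that sum to the library total in the header for 16 of 16 columns. The deposited RPKM follow from count, length and total in 151539 of 151539 cells above 0 (relative tolerance 1e-06). The deposited KEGG score is that of the database hit behind the description. Even numbers made up 69.1% of the counts between 1 and 9 and 49.6% of those between 200 and 999. Whether both mates of a pair were counted was not tested, and if so low counts hold fewer fragments than they appear to.

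From these, edgeR 4.0.16 (R 4.3.3) fitted exposure and colony to the counts after TMM scaling and filterByExpr (8406 genes; 9 residual degrees of freedom), with the quasi-likelihood F-test at a Benjamini-Hochberg adjusted p of 0.05. The common biological coefficient of variation came to 0.282. The interaction of colony with exposed state left 8 residual degrees of freedom. CPM used TMM-scaled totals, and log2 CPM a prior count of 2. Alternatives were RLE size factors, no count filter, DESeq2 1.42.0 on the same genes, limma-trend 3.58.1 on log2(RPKM + 1) of 7553 genes with a mean RPKM of at least 1, no colony term, the libraries without K control, S 075 and L 161, each library or colony left out, and members with a score of at least 200 (44). Differences within a colony are means of log2 CPM of its 3 exposed libraries minus its control.

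The label shared across exposures is the colony, which pairs libraries by a common origin of the workers. It is therefore the replicate block of every fit except the alternative without a colony term. Labels do not say whether pools of 1 colony came from separate cages. Symbols came from a RefSeq gene table and matched 29 of 53 members. Named members were, per comparison, those past the threshold or else the 6 with the smallest p, the highest and lowest of each role, and a fixed set of chaperones, channel and coat subunits. The members and lists were chosen with earlier results of these data known, and the interaction without each colony was added after the data were seen. Sequences are not analysed here.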

Additional observations from a re-analysis of the deposited data

Results flagged for a closer look

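ERp29 (XM_003402636.1) differed in its response between colonies in the test of that difference (edgeR, adjusted p = 0.0297), with exposed libraries above the control in K, L and T and below it in S. Each colony has 1 control library, so the spread between control pools is not measured. The adjusted p was 0.0621 in limma-trend and 0.954 in edgeR without colony S, and it missed the threshold without any of 7 single exposed libraries.

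In groups of 4 libraries, 1 library stood apart from the other 3 by Dixon's criterion in 15 of 296 groups of named members, and chance gives about 1 in 20. T control was low for calreticulin (XM_003403152.1) at 349 CPM, against 671 to 716 CPM in the rest of colony T. It was also low there for PDIA3 (XM_003393020.1) at 212 CPM, against 331 to 347 CPM, and for PDI A1 (XM_003403278.1) at 96.7 CPM, against 131 to 135 CPM. It was high for SRP receptor beta (XM_003403039.1) at 25.8 CPM, against 21.5 to 22 CPM. S control was high in colony S for SRP19 (XM_003396202.1) at 12.6 CPM (12.55 before rounding), against 7.66 to 8.17 CPM, and for SEC24 (XM_003399484.1) at 458 CPM, against 380 to 388 CPM. Among the 4 controls it was high for SEC61 beta (XM_003394576.1) at 60.2 CPM, against 43.1 to 45.5 CPM.

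L 161 was high in colony L for SEC31 (XM_003394221.1) at 299 CPM, against 154 to 164 CPM, and for signal peptidase subunit 2 (XM_003398246.1) at 169 CPM, against 61.0 to 66.7 CPM. It was low within genotype 161 for PDI A1 at 31.6 CPM, against 134 to 136 CPM. Signal peptidase subunit 2 was also high in K 068 at 82.3 CPM, against 60.8 to 63.7 CPM in the other 068 libraries, and in L 075 at 66.7 CPM, against 43.6 to 47.0 CPM in the other 075 libraries. SEC61 beta was high in K 075 at 67.3 CPM, against 44.5 to 46.3 CPM. OST beta (XM_003401787.1) was low in S 068 at 30.9 CPM (30.85 before rounding), against 41.5 CPM in each of the other 068 libraries, and ERp29 was low in S 161 at 47.5 CPM, against 63.9 to 65.6 CPM in the other 161 libraries.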

How the results depend on the processing

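Of 377 recomputed values of the 17 comparisons and descriptions, 360 kept their direction and their side of the threshold or stayed within the spread. The count of members called for the interaction was 2 with DESeq2, 0 with limma-trend and 0 to 2 with a library or a colony left out. The median difference of genotype 161 from control ran from -0.062 to 0.082 with a library left out, the highest without S control; it was -0.073 without colony T and ran from -0.10 to -0.014 under the 7 settings that leave out no single library or colony. The median correlation within roles was 0.26 without K control, S 075 and L 161 and 0.22 after removing colony means. For single members, 1512 of 1528 values kept direction and call. Those of signal peptidase subunit 2 and SEC31 for genotype 161 against control reversed without those 3 libraries, to -0.10 (-0.098) and -0.03 (-0.032); neither passed in any alternative. Without the replicate block (no colony term), 0 members were called for exposed against control, the median difference was 0.04 (0.039), and no call changed. The interaction could not be fitted without a control library or without the 3 libraries, and colony comparisons were not recomputed with a colony left out. Each colony has 1 control pool, and records with a few reads in a library could not be tested at this depth.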

Other observations

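Of the 7 records whose description matched but whose score was below 100, several were abundant. The 2 SEC24 members averaged 91.7 and 21.5 RPKM over 16 libraries, and the SEC24-described records XM_003400572.1 and XM_003398731.1 averaged 61.0 and 57.6 RPKM. Calnexin averaged 54.7 RPKM, and a calnexin-described record (XM_003398193.1) averaged 35.0 RPKM. The rest, described as PDI A4 (XR_132066.1), PDI A1 (XR_131924.1), PDIA3 (XM_003400861.1) and SRP receptor beta (XR_132427.1), averaged 4.82 to 9.50 RPKM. Whether they are further copies or pieces of the same genes was not tested.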
